A study of Mus musculus with 6 samples.

Results

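Cxcl13, the chemokine that draws B cells into follicles, was measured in mouse lung together with the other homeostatic chemokines of lymphoid tissue, their receptors and the lymphotoxins. The group consists of every probe set whose platform annotation names only 1 of 10 symbols: the ligands Cxcl13, Ccl19, Ccl21a and Cxcl12, the receptors Cxcr5, Ccr7 and Cxcr4, the lymphotoxins Lta and Ltb, and their receptor Ltbr. These are 11 of the 45101 probe sets on the array and cover 8 of the 10 genes. Ccl19 and Ccl21a were only on probe sets that name near-identical genes as well, so neither had a probe set of its own. Lungs came from 6 wild type mice in 2 diet groups, 3 control and 3 high fat, and each lung was run on 1 array. Strain, age, sex, diet composition and feeding time were not given in the labels used here. These genes make up 8 of 18194 genes with a probe set of their own. They were selected on signals of the same 6 arrays, with the diet differences known, so the differences of its members are given as a description, without a p-value.

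In lymph nodes and spleen, stromal cells make these chemokines without any infection, which is why they are called homeostatic. CXCL13 binds CXCR5 on B cells and follicular helper T cells, CCL19 and CCL21 bind CCR7 on naive T cells and mature dendritic cells, and CXCL12 binds CXCR4 on most leukocytes. Lymphocytes carry lymphotoxin, a heteromer of the LTA and LTB chains, on their surface. Its receptor on stromal cells, LTBR, signals through the alternative NF-kB pathway, in which the kinase encoded by Map3k14 leads to RelB and p52, and this pathway drives Cxcl13 and Ccl21a. CXCL13 produced in turn attracts further lymphotoxin-bearing B cells. In the lung the axis is known from the lymphoid aggregates around bronchi and vessels, and Cxcl13 is also made in the serous cavities, by mesothelial and stromal cells and by macrophages.

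Of the 10 genes, 8 had a promoter window in RefSeq (GRCm38.p6), from 250 bases before to 50 bases after the start of the gene. The windows of Cxcl13, Cxcl12 and Cxcr4 are shown because Cxcl13 and Cxcl12 are ligands of the same class, and Cxcr4 is the receptor of Cxcl12. They lie at chr5:95956689-95956988 on the + strand, chr6:117168285-117168584 on the + strand and chr1:128592250-128592549 on the - strand. Each is printed along the gene's own strand, 5′ to 3′, with capitals for matches to 3 motifs searched on both strands: the TATA box (TATAAA), the NF-kB site of the alternative pathway (GGAGATTT or GGAGACTT) and the classical NF-kB site.
Cxcl13: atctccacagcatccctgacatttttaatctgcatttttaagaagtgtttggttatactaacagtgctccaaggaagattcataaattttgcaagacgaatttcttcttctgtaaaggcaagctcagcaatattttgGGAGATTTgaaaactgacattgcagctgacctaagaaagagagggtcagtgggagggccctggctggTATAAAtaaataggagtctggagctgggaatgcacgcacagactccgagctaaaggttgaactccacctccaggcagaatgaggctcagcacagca
Cxcl12: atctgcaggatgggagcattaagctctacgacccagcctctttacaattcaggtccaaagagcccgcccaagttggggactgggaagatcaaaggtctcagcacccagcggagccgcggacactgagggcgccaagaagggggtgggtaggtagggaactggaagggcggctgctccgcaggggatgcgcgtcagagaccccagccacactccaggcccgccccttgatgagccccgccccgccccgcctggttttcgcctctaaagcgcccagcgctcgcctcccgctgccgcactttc
Cxcr4: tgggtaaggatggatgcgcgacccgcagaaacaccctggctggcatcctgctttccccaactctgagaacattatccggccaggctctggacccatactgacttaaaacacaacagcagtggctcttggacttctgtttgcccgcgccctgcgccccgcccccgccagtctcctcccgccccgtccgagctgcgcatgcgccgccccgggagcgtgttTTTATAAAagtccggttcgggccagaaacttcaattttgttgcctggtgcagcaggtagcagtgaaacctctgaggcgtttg
The Cxcl13 window held GGAGATTT from -113 to -106 and TATAAA from -46 to -41, counted from +1 at the first base of the gene. A site of this kind in the Cxcl13 promoter is textbook knowledge for RelB and p52, so the match was looked for there. Of 32851 promoter windows, 2.45 percent held the alternative site, 13.6 percent a TATA box and 0.411 percent the classical site. The Cxcr4 window held TATAAA from -30 to -25, overlapped by the same motif on the other strand from -32 to -27, and the Cxcl12 window held none of the 3 motifs. Among the other members, Lta held TATAAA from -167 to -162 and Ltb a classical site on the opposite strand from -87 to -78. The Cxcl13 window was the poorest in G and C of the 8, at 44 percent with 3 CpG dinucleotides, against 64.7 percent and 20 in Cxcl12, 59.3 percent and 20 in Cxcr4, and medians of 52.7 percent and 7 over all windows.

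Values are MAS5 signals, and each array has the same trimmed mean. Differences are high fat minus control on the log2 scale, with the standard error (SE) of the limma fit. A gene is called where its limma p, adjusted over the brightest probe sets of 12689 genes, is under 0.05. For genes of the lists below, rose and fell mean called higher and called lower in high fat mice. The median log2 difference of those genes was 0.06, and centring each array on its median moved it to 0.33. Averaged probe sets are the mean over all probe sets of a gene, dim ones included. Differences on them can therefore reflect probe sets too dim to be fitted on their own. Two-sided tests and SDs rest on 3 mice per group, and in whole lung fewer cells of a type and less RNA per cell cannot be told apart.

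Cxcl13 was higher in the lungs of high fat mice on both of its probe sets. On the brighter one (1417851_at) control signals were 588, 740 and 690, and high fat signals were 1791, 3341 and 2102. The lowest high fat mouse was well above the highest control mouse, and replicate 2 stood highest in the high fat group. The means were 673 ± 77.6 and 2411.5 ± 820 (SD, n = 3 each), a log2 difference of 1.80 with an SE of 0.22, or 3.47-fold. The other probe set (1448859_at) gave 450, 534 and 583 in the control group and 892, 1681 and 1114 in the high fat group. It had the same order among the high fat mice, again without overlap, and a smaller log2 difference of 1.19 (SE 0.23, 2.28-fold). With 1 mouse left out, the log2 difference of the brighter probe set ran from 1.53, without high fat replicate 2, to 1.98, without high fat replicate 1.

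Cxcl12, the ligand that holds leukocytes and progenitors in tissue through CXCR4, had 3 probe sets that disagreed. The brightest (1417574_at) had signals of 1952, 2656 and 4265 in control and 2192, 2540 and 3139 in high fat mice. The groups overlapped entirely, with control replicate 3 highest of all, and the log2 difference was -0.11 (SE 0.26). Its sign turned with array centring (0.16), without control replicate 3 (0.19) and without high fat replicate 1 (0.01). A second probe set (1448823_at) had signals of 1105, 1292 and 1260 in control and 1538, 1775 and 1998 in high fat mice. Here each high fat mouse was above each control mouse, by 0.53 on the log2 scale (SE 0.13, 1.45-fold). The third (1439084_at) was dim, at 94.0, 72.1 and 152 in control and 5.33, 18.7 and 46.3 in high fat mice, lower in each high fat mouse than in any control mouse. Its mean lay under the filter on dim probe sets, a signal of 70.3, and it was not fitted. On averaged probe sets, which include it, Cxcl12 had a log2 difference of -0.73. That average is negative only through this dim probe set (-2.60), which lies too near background for a difference to be measured. Which transcripts of Cxcl12 the 3 probe sets detect was not analysed, and no direction can be given for the gene.

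The CCR7 ligands could be followed only on probe sets that they share with near-identical genes, outside the rule. The probe set that names Ccl21a and 8 other genes (1419426_s_at) had signals of 4133, 4720 and 5030 in control and 2519, 3862 and 4007 in high fat mice. The high fat mice were all lower, by a narrow margin in replicate 3, with a log2 difference of -0.44 (SE 0.18). The probe set that names Ccl19 and 9 other genes (1449277_at) had 237, 167 and 193 in control and 239, 187 and 264 in high fat mice, which overlapped (0.21, SE 0.23). How the signal divides among the copies is uncertain.

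**Figure D1:**
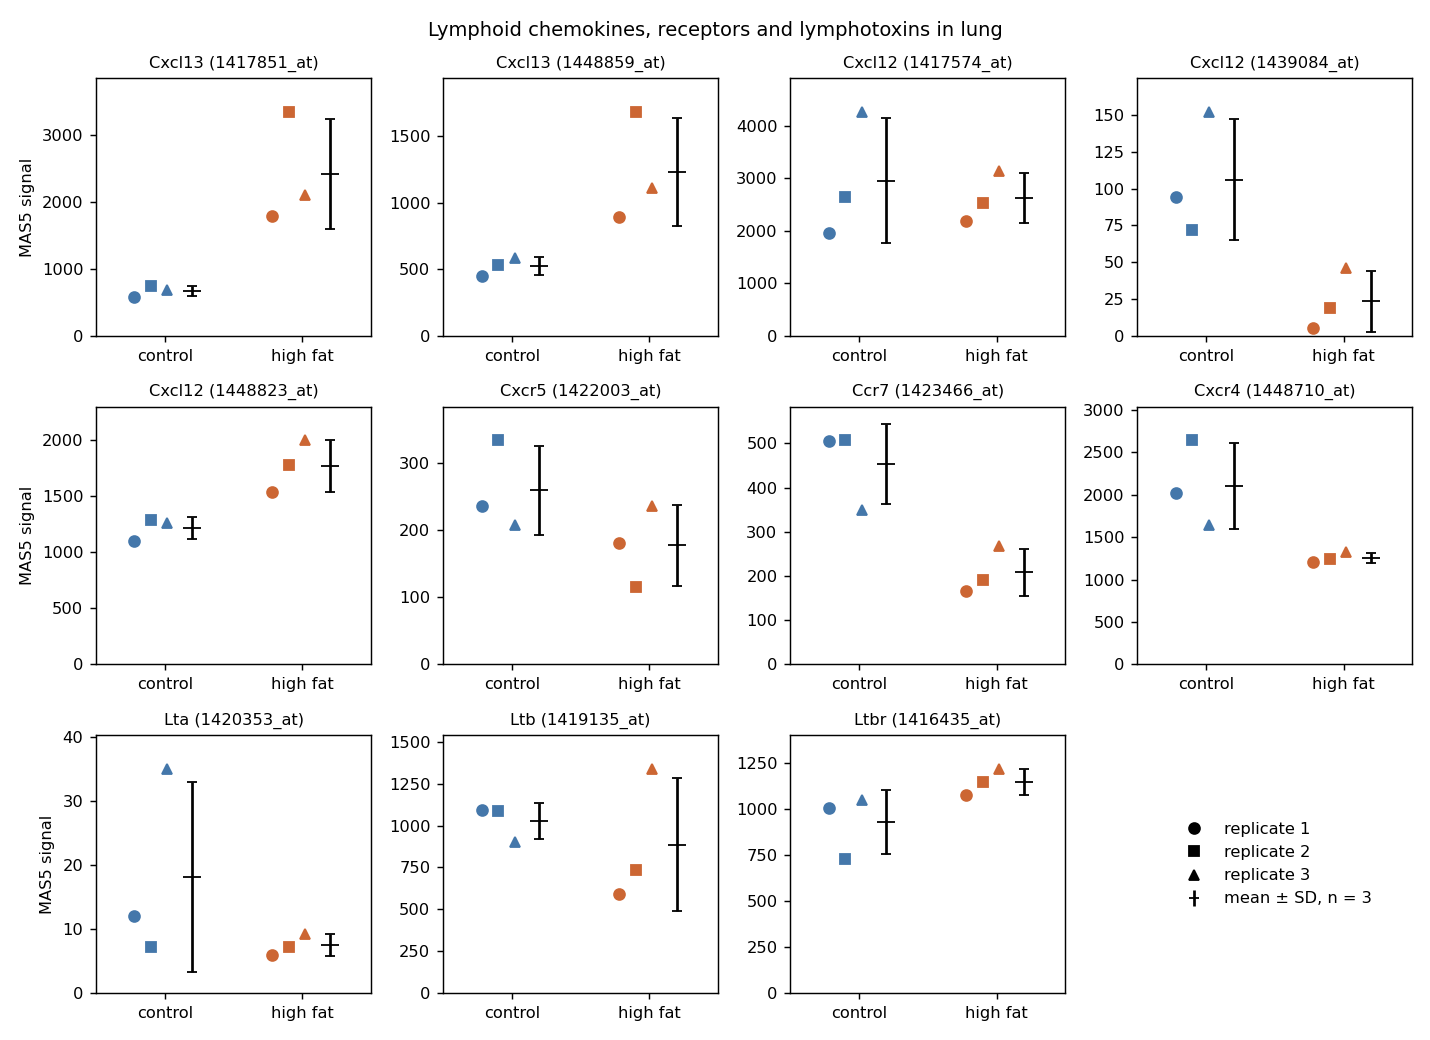
MAS5 signal (y axis, linear, from 0, a scale of its own in each panel) of the 11 probe sets in each of the 3 control and 3 high fat mice, with symbols for replicates and bars for mean ± SD. Cxcl13 was higher without overlap on both probe sets, Ccr7 and Cxcr4 were lower without overlap, and the 3 probe sets of Cxcl12 differed in direction.

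The receptors had lower mean signals in high fat mice, opposite to Cxcl13. Cxcr5, the CXCL13 receptor that marks mature B cells, had signals of 237, 334 and 208 in control and 181, 115 and 236 in high fat mice. The groups overlapped, since high fat replicate 3 was as high as control replicate 1, and the log2 difference was -0.58 (SE 0.31). The high fat mouse with the most Cxcl13, replicate 2, had the least Cxcr5. Ccr7, which guides T cells and dendritic cells into lymphoid tissue, had 505, 507 and 350 in control and 166, 191 and 267 in high fat mice. The means were 454 ± 89.9 and 208 ± 52.4 (SD, n = 3 each), without overlap, and the log2 difference was -1.13 (SE 0.24), or 0.456 times the control level. Cxcr4 had 2024, 2641 and 1647 in control and 1209, 1246 and 1324 in high fat mice. The high fat mice lay close together and below the lowest control mouse, with means of 2104 ± 502 and 1260 ± 58.6 (SD, n = 3 each) and a log2 difference of -0.71 (SE 0.17), or 0.610 times. With 1 mouse left out, the log2 difference ran from -1.33 to -0.99 for Ccr7 and from -0.88 to -0.54 for Cxcr4. With array centring Cxcr4 was at -0.44.

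The lymphotoxin chains overlapped between the diets, and their receptor was slightly higher in high fat mice. Ltb, the chain that anchors lymphotoxin in the membrane, had signals of 1091, 1087 and 905 in control and 590, 732 and 1339 in high fat mice. High fat replicates 1 and 2 were below, and replicate 3 above, all control mice, and the log2 difference of -0.30 (SE 0.27) came to -0.05 without high fat replicate 1 and -0.64 without high fat replicate 3. Lta, the secreted chain, lay far under the filter, at 12.1, 7.25 and 34.99 in control and 5.89, 7.24 and 9.27 in high fat mice, so no difference could be measured. In the RefSeq gene order of chromosome 17, Ltb, Tnf and Lta follow each other directly. Ltbr, the stromal receptor, had 1006, 728 and 1047 in control and 1078, 1144 and 1218 in high fat mice. Each high fat mouse was above each control mouse, by a margin small beside the control spread, with a log2 difference of 0.32 (SE 0.16), and 0.60 with array centring.

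In sum over the family, 7 of the 8 genes with a probe set of their own passed the filter, and 3 were called, 1 higher and 2 lower. Of all 12689 genes, 6.75 percent were called, 4.56 percent higher and 2.2 percent lower, and 67.4 percent of calls were higher, against 95.4 percent with array centring and 54.4 percent on averaged probe sets. The groups did not overlap for 4 of the 7 (Cxcl13 and Ltbr above, Ccr7 and Cxcr4 below). Among all genes the high fat mice were all above in 19.7 percent and all below in 12.1 percent, 31.8 percent together. The median log2 difference of the 7 was -0.30, against 0.06 for all genes. The members past the threshold were Cxcl13, Ccr7 and Cxcr4, and in fits that left out 1 mouse Ccr7 passed only without high fat replicate 3 and Cxcr4 only without control replicate 3. Because the group was chosen with this contrast known, these counts are a description and nothing is read from them.

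**Figure D2:**
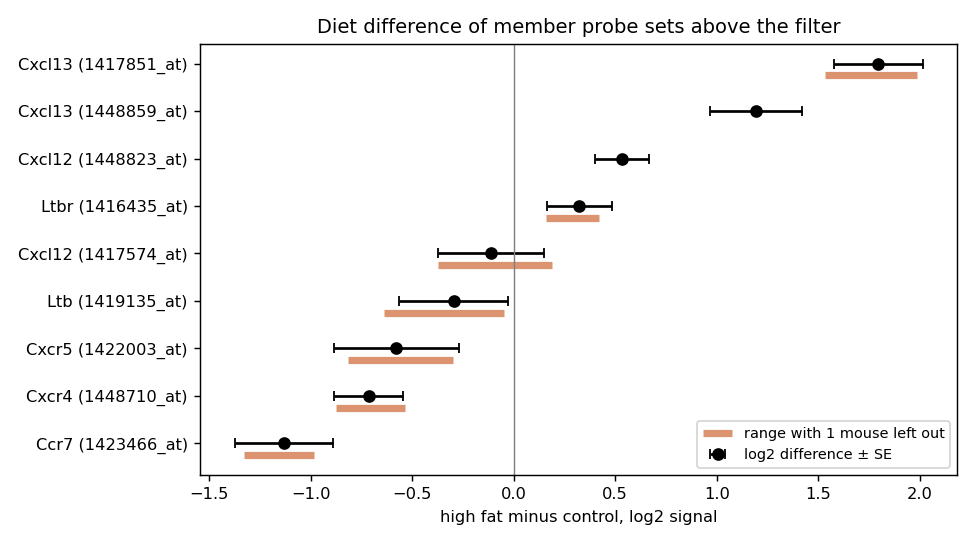
Log2 difference, high fat minus control (x axis), of the 9 member probe sets above the filter, as points with SE bars, and for the brightest probe set of each gene the range with 1 mouse left out as orange bars. Cxcl13 stands at 1.80 and 1.19, Ccr7 and Cxcr4 at -1.13 and -0.71, and only the bar of Cxcl12 crosses 0.

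The 5 genes whose log2 profile over the 6 arrays lay nearest to that of Cxcl13, by root mean square (RMS) difference after centring on the control mean, were sought among 12218 named genes. Atp5md, a small subunit of the mitochondrial ATP synthase, was nearest (RMS 0.26), with signals of 498, 565 and 391 in control and 1786, 2403 and 1537 in high fat mice. Wt1, a transcription factor of mesothelial cells, followed (RMS 0.28) with 67.5, 79.7 and 68.3 against 167 in replicate 1, 236 in replicate 2 and 190 in replicate 3. Upk3b, a uroplakin of mesothelium, was the third (RMS 0.32), with control signals of 1853, 1928 and 1675 and high fat signals of 4241, 7097 and 3691. Snhg8, a host gene of small nucleolar RNA, and Crip1, a LIM domain protein, each had an RMS difference of 0.33. In Atp5md, Wt1, Upk3b, Snhg8 and Crip1 the highest signal was that of high fat replicate 2, as in Cxcl13. Since likeness to Cxcl13 chose these genes, their diet differences and their shared peak in replicate 2 follow largely from the choice. Both are a description, and the likeness rests on 6 arrays in 2 diet groups.

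**Figure D3:**
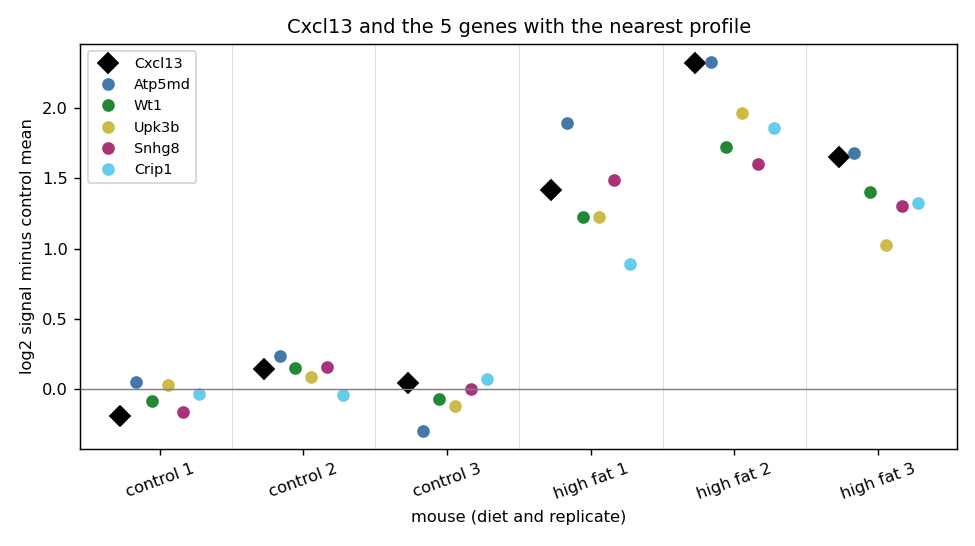
Log2 signal minus the mean of the control mice (y axis) in each of the 6 mice (x axis) for Cxcl13 (diamonds) and the 5 genes with the nearest profile (circles). In all 6 genes high fat replicate 2 is the highest mouse, and control mice lie near 0. The 5 genes were chosen for their likeness to Cxcl13 on these arrays.

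Downstream of the lymphotoxin receptor, 12 genes of the NF-kB pathways were tested and limma called 0, with 4 at an unadjusted p under 0.05, against 3238 of 12689 genes. Differences were positive in 10 of the 12 (median 0.27). With array centring, which lifts all genes, 6 were called higher. Nfkb2, the precursor of p52, had 262 ± 61.7 in control and 465 ± 123 in high fat mice (SD, n = 3 each; limma adjusted p = 0.0825), and the adaptor Traf2 had 305 ± 65.0 and 481 ± 101 (limma adjusted p = 0.122). Map3k14, the kinase of the alternative pathway, was lower in each high fat mouse, at 232 ± 32.9 and 163 ± 11.1 (SD, n = 3 each; limma adjusted p = 0.178). Of 7 other TNF family ligands and receptors, 0 were called (1 at an unadjusted p under 0.05, median -0.31), and Cd40, the B cell and dendritic cell costimulatory receptor, had the smallest p (497 ± 21.7 and 352 ± 60.5, SD, n = 3 each; limma adjusted p = 0.108). Tnf itself was not tested.

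A few other receptors of lymphocytes fell in high fat mice, among lists whose other genes mostly did not pass the test. Of 12 atypical chemokine receptors and other homeostatic chemokines and guidance receptors, 0 rose and 2 fell (median -0.19, which turned to 0.09 with array centring). Gpr183, the oxysterol receptor that positions B cells beside CXCR5, fell from signals of 496, 544 and 440 to 157, 206 and 237, or 0.401 times (limma adjusted p = 0.0119), but it was not called without control replicate 2 (0.0555) or on averaged probe sets, where its log2 difference was -0.70 against -1.32. Cxcl14, another homeostatic chemokine, was higher in each high fat mouse and not called (0.60 on the log2 scale, limma adjusted p = 0.0689). S1pr1, which lets lymphocytes leave tissue and is also an endothelial receptor, fell from 3042, 2393 and 3933 to 1551, 1405 and 1149, or 0.444 times (limma adjusted p = 0.0133), and stayed called with any 1 mouse left out. Of 12 genes of chemokine receptor signalling, 0 were called higher and 1 lower. This was Coro1a, an actin regulator of leukocytes, at 0.572 times (limma adjusted p = 0.0252, up to 0.0949 without control replicate 2). Differences of the 12 were positive in 3 and negative in 9 (median -0.26, and 0.01 with array centring). Of 10 lymphoid organiser and inducer genes (median -0.21, and 0.07 with array centring), Nr2f2, a transcription factor of veins and lymphatics, rose 1.66-fold and Il7r, the interleukin 7 receptor of lymphocytes and inducer cells, fell to 0.676 times (limma adjusted p = 0.0139 and 0.0494; without control replicate 3, Nr2f2 reached 0.0666, and Il7r was called in 0 of 6 fits with 1 mouse left out). Nr2f2 was also not called without the first replicate of both groups or on averaged probe sets, where its log2 difference was 0.11 against 0.73. Of 7 high endothelial venule genes, only Emcn, which capillaries also express, was called, and it fell (0.490 times, limma adjusted p = 0.0119, 0.0553 without control replicate 3). Differences of this list were positive in 4 and negative in 3, and in 2 genes each high fat mouse was above each control mouse. The list median was 0.13, with 0.40 under array centring and -0.56 on averaged probe sets.

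Markers of the cells that carry the receptors were lower or not called. Of 14 B cell markers, 0 rose and 4 fell, and all 14 differences were negative (median -0.85). Ms4a1, which encodes CD20, had signals of 1576, 2193 and 1361 in control and 849, 397 and 775 in high fat mice (0.382 times, limma adjusted p = 0.0289), and Fcmr, Cd22 and Fcer2a also fell (limma adjusted p = 0.0186, 0.0375 and 0.046). Each of the 4 lost its call when a control mouse was left out (up to 0.146, Fcer2a without control replicate 3), and 0 were called without the first replicate of both groups. Only 1 B cell marker was called lower on averaged probe sets, and 1 with the replicate block. On averaged probe sets Cd22 had a log2 difference of -2.33 against -1.20 and was not called. The summed signal of all B cell markers on the array was 7536 to 11357 in control and 3295 to 6600 in high fat mice, lowest in high fat replicate 2, the mouse lowest in Cxcr5. Of 11 T cell markers, 0 rose and Cd8b1, the CD8 beta chain, fell to 0.255 times (limma adjusted p = 0.00425), called with any 1 mouse left out, and all 11 differences were negative (median -0.76, summed signals of 2767 to 3571 and 1311 to 2663). Of 11 dendritic cell markers, limma called 0 (3 at an unadjusted p under 0.05, median 0.22), with 7 differences positive and 4 negative. Itgax was lower in each high fat mouse (946 ± 169 and 594 ± 117, SD, n = 3 each; limma adjusted p = 0.0648). Fscn1 was higher in each (500 ± 201 and 878 ± 150, SD, n = 3 each; limma adjusted p = 0.115). The part of these cells in the lower Cxcr5, Ccr7 and Cxcr4 signals was not tested.

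Among cells that can make Cxcl13 or lie beside its sources, 4 mesothelial and 7 adipocyte markers rose. Of 10 macrophage markers, given further below, 3 rose and 2 fell. Of 9 mesothelial markers, 4 rose and 0 fell (median 1.02), and Krt19 and Upk1b, at -0.08 and -0.05, overlapped between the diets. They were Prg4, a lubricating glycoprotein (10.1-fold, limma adjusted p = 0.00218), Upk3b (2.65-fold, 0.012), Wt1 (2.74-fold, 0.0186) and Lrrn4 (2.02-fold, 0.0391), and with any 1 mouse left out Prg4 stayed called while the number called ran from 1, without control replicate 3, to 4. The summed signal of the 9 markers was 11054, 14004 and 12086 in control and 16773, 25999 and 17358 in high fat mice. It was highest in replicate 2, as for Cxcl13, and bright markers weigh most in it. Among the high fat mice, Prg4 was highest in replicate 3 (2966), Krt19 in replicate 1 (4204) and the other markers in replicate 2. Of 8 adipocyte markers, 7 rose (5 to 8 with 1 mouse left out) and 0 fell, among them Fabp4 (7.66-fold), Aoc3 (5.31-fold) and Plin4 (4.71-fold), with summed signals of 3049 to 6734 and 24656 to 35047, highest in high fat replicate 1. On averaged probe sets Fabp4 had a log2 difference of 1.65 against 2.94 and stayed called. With eBayes without trend, S1pr1, Emcn, Nr2f2, Il7r, Coro1a, the 4 B cell markers, Upk3b and Lrrn4 were not called. Of 8 markers of follicular dendritic and reticular stroma, limma called 0 (4 at an unadjusted p under 0.05, median 0.28). Pdgfrb, a receptor of pericytes and reticular stroma, had the smallest p among them (2799 ± 470 and 4739 ± 1087, SD, n = 3 each; limma adjusted p = 0.0538). The summed signal was 18715 to 20763 in control and 24152 to 27455 in high fat mice, and bright markers weigh most in it. Cr2, which is also on the B cell list, was the 1 of the 8 with a negative difference (-0.98). Its groups overlapped, at 231 ± 85.4 and 131 ± 80.3 (SD, n = 3 each). Fdcsp and Coch of this list were not tested. Of 7 lymphatic endothelial markers, 0 were called (2 at an unadjusted p under 0.05, median 0.06). Lyve1 was lower in each high fat mouse (4422 ± 866 and 2901 ± 695, SD, n = 3 each, limma adjusted p = 0.0925). Thy1 was higher in each (618 ± 48.2 and 800 ± 111, limma adjusted p = 0.168). Of 4 germinal centre and follicular helper genes, 0 were called (2 at an unadjusted p under 0.05). Bcl6 (944 ± 153 and 1216 ± 62.7, limma adjusted p = 0.144) and Cxcl10 (87.5 ± 75.8 and 274 ± 187, limma adjusted p = 0.183) were higher in each high fat mouse. The part of mesothelial, adipose or stromal tissue, or of macrophages, in the Cxcl13 difference was not tested.

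**Figure D4:**
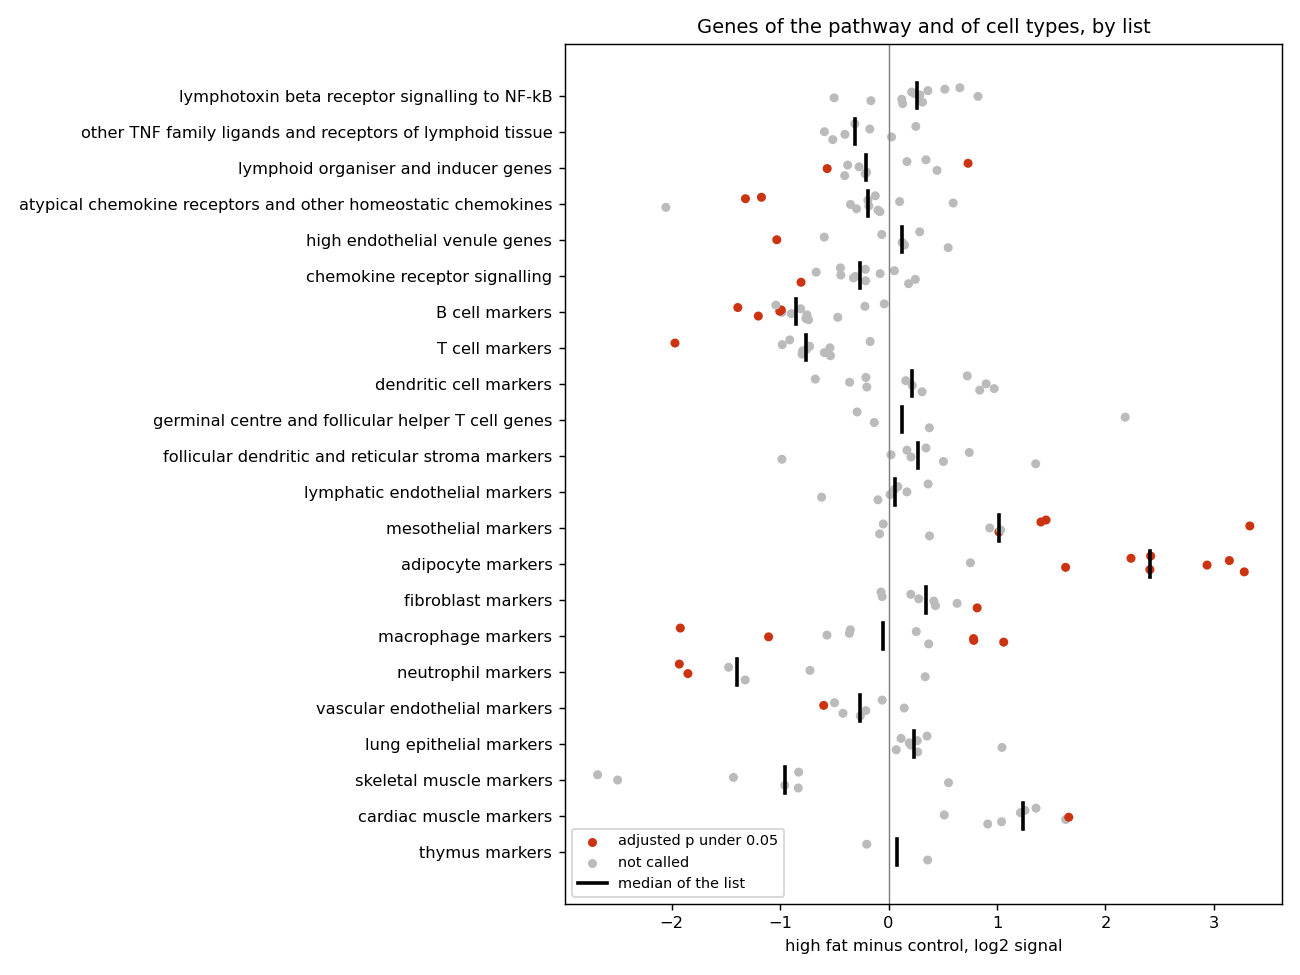
Log2 difference, high fat minus control (x axis), of each tested gene of 22 lists (rows), red where called by limma and grey where not, with the median of each list as a black bar. B and T cell markers lie below 0, with medians of -0.85 and -0.76, and mesothelial and adipocyte markers have medians of 1.02 and 2.41.

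**Figure D5:**
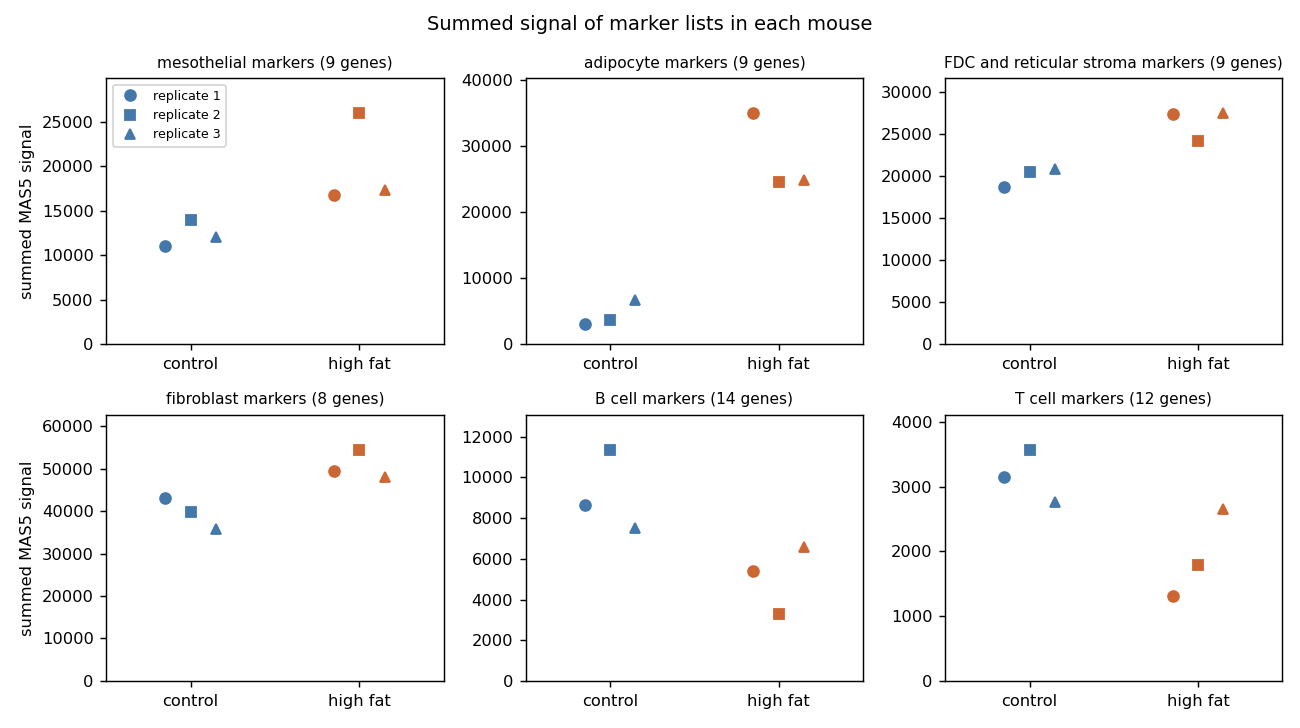
Summed MAS5 signal (y axis, linear, from 0) of 6 marker lists in each mouse, by diet (x axis) and replicate (symbols), where FDC stands for follicular dendritic cell. Mesothelial, adipocyte, stroma and fibroblast sums are higher in each high fat mouse than in any control mouse, and B and T cell sums are lower. Bright genes weigh most in each sum, and single genes can differ from it.

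Properties of the arrays also moved with diet. The median signal was 143 to 150 in control and 113 to 129 in high fat mice, although the trimmed means were equal. Control probe sets gave ratios of 3' over 5' signal, a measure of RNA quality, of 0.743 to 0.795 in control and 0.854 to 0.957 in high fat mice for Gapdh and 1.194 to 1.437 and 1.503 to 1.546 for b-Actin. The reference gene Actb overlapped between the groups (36819 ± 10706 and 39564 ± 1492, SD, n = 3 each), and the surfactant gene Sftpc and the club cell gene Scgb1a1, markers of lung, were bright on all 6 arrays. What these properties contribute to the differences of the chemokine genes was not tested, and since sample numbers in the labels run in separate ranges by diet, a batch that follows diet cannot be told apart from it.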

How the data were processed

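RNA of 6 mouse lungs was hybridised to Affymetrix arrays, 3 per diet group, with groups taken from the labels. The deposited table holds linear intensity values that the authors computed with MAS5, as the submitters' processing notes name it, with no version or settings in the labels. In it the trimmed mean without the top and bottom 2 percent was 500 on each array. MAS5 subtracts mismatch signal, so dim probe sets are noisy. No genome build is named in the deposited table.

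Values below 1 were set to 1, log2 was taken, and probe sets whose mean reached the 40th percentile were kept (27022 of 45101, with 64 control probe sets left out). Diet was tested with limma 3.58.1 in R 4.3.3 (lmFit, eBayes with trend, two-sided, 4 residual degrees of freedom), with Benjamini-Hochberg adjustment over the brightest probe set of 12689 genes, each naming only that gene. Symbols came from the platform annotation, and a lookup by Entrez identifier in RefSeq (GRCm38.p6) changed 0. The code was run on simulated arrays with equal noise at all signal levels and no shift between arrays. That run does not cover the noise or the array differences of these data.

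Members, lists and the rule for named genes were chosen with earlier results of these data known. The rule names all members, the 5 genes nearest to Cxcl13, up to 4 called genes per list (up to 2 where none was called) and reference genes. Map3k14, Cxcl14, Krt19, Upk1b and Cr2 lie outside it and were added once their values had been seen. Sftpc and Scgb1a1 are defining markers of lung. The labels do not say how the mice were housed or handled, and the p-values cannot separate such effects from diet. The p-values compare a diet difference with the spread between mice of the same diet, moderated by limma over the kept probe sets. The number of arrays, 3 per group, limits the precision. Promoter sequences are those of RefSeq, GRCm38.p6.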

Additional observations from a re-analysis of the deposited data

How the results depend on the processing

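Over the 17 alternatives the log2 difference of Cxcl13 ran from 1.49 (averaged probe sets) to 2.07 (array centring). Members were chosen on these arrays, so how many pass the threshold describes the settings and does not support a difference. That number was 3, and 1 with eBayes without trend, 1 with the replicate block and 1 without the first replicate of both groups, and ran from 1 to 2 with 1 mouse left out. The number of genes called was 857, and 3208 with array centring, 136 without trend, 471 on averaged probe sets and 307 without the first replicate of both groups, and ran from 160 (without control replicate 3) to 570 (without high fat replicate 3) with 1 mouse left out. Called genes on the lists outside the family numbered 32, and 63 with array centring, 11 without trend and 19 without the first replicate of both groups, and ran from 12 (without control replicate 2) to 31. Array weights and averaged probe sets each left 2 members called, and with array centring the 3 were Cxcl13, Ltbr and Ccr7. The cause of these shifts was not tested, except that fits without a mouse have fewer samples. Leaving out the first replicates was chosen because earlier results showed muscle transcripts there.

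Quantile normalization, adding 32 before log2, no filter, a filter at the 60th percentile and robust eBayes each had Cxcl13, Ccr7 and Cxcr4 past the threshold. The labels give no pairing of mice by replicate number, and the main fit used none. Deviations of same-numbered mice correlated at 0.167, 0.108 and -0.0413. The value of the first replicates (0.167) was the highest between any control and high fat mouse, while control replicate 2 correlated best with high fat replicate 3 (0.127). With 3 mice per group these correlations cannot decide whether the mice were paired. With the replicate block, 737 genes were called. Lta and the dim probe set of Cxcl12 lie too near background for a difference to be measured.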

Other observations

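Other cell types of the lung moved in both directions. Of 10 macrophage markers, 3 rose (the complement genes C1qa, C1qb and C1qc, 1.72-fold to 2.09-fold) and 2 fell, the lysosomal protein Cd68 (0.465 times) and Siglecf, a lectin of alveolar macrophages (0.264 times; limma adjusted p = 0.015 and 0.0166), and of the 5 only C1qa was called in each fit that left out a mouse (highest limma adjusted p of the 5 then 0.121, C1qb without control replicate 2). Of 6 neutrophil markers, Mmp8 and S100a9 fell to 0.277 and 0.263 times (limma adjusted p = 0.0322 and 0.0334, up to 0.108, Mmp8 without control replicate 3). Of 7 vascular endothelial markers, Pecam1 fell to 0.661 times (limma adjusted p = 0.0346, up to 0.129 without control replicate 3). Of 8 fibroblast markers, Col1a1 rose 1.76-fold (limma adjusted p = 0.0282, up to 0.0852 without control replicate 3). Of 8 cardiac muscle markers, Myl7, the atrial light chain, rose 3.16-fold (limma adjusted p = 0.0277, up to 0.0943 without control replicate 2). Limma called 0 of 8 lung epithelial, 0 of 7 skeletal muscle and 0 of 2 thymus markers, with 2, 0 and 1 at an unadjusted p under 0.05. Summed skeletal muscle signal was 65742 in control replicate 1 and 19993 in high fat replicate 1, against 565 to 3372 in the other mice, and Cxcl13 without the first replicate of both groups was at a log2 difference of 1.89.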
